A study of Mus musculus with 6 samples.

Results

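Glo1 and the neighbouring genes Glp1r and Btbd9 of mouse chromosome 17 were followed in tauGFP-positive hindbrain cells of E10.5 embryos. Every probe set that the platform's probe table assigned to exactly 1 symbol, with that symbol one of the 3 genes, was included. These are 3 of 18193 named genes on the array and 8 of its 45101 probe sets, 4 for Glo1, 1 for Glp1r and 3 for Btbd9. The rule names genes and no values, but the group was put forward with results of these arrays known, so it is treated as chosen on the difference between the genotypes. That difference is given as a description, with its interval and without a p-value.

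The 3 swap arrays, labelled Hoxb1>A1-IRES-tauGFP, held RNA of embryos in which the Hoxb1 locus made the paralogous protein Hox-A1 together with IRES-tauGFP. The 3 control arrays held RNA of embryos in which the locus made the normal Hox-B1 protein, also with IRES-tauGFP, so both groups carried the reporter at this locus. In both, tauGFP-positive cells were sorted from dissected hindbrains pooled over whole litters, and the source is labelled rhombomere 4, the segment of the hindbrain from which facial branchiomotor neurons arise. The series design describes the replicates as biological and independent. The reporter marks only cells in which the Hoxb1 locus is active, and neither the mouse strain nor the number of copies of the locus in an embryo is given in the sources used here.

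Glo1 encodes glyoxalase 1, which converts methylglyoxal, a reactive by-product of glycolysis, into S-lactoylglutathione once it has bound glutathione, and the enzyme that follows it, glyoxalase 2, releases lactate and glutathione. Glp1r encodes the receptor for the incretin hormone GLP-1, and Btbd9 encodes a BTB-domain protein that binds the ubiquitin ligase scaffold cullin-3 and whose human counterpart is a restless legs syndrome gene. In mice a tandem duplication that spans Glo1 and reaches into its neighbours is known from some inbred strains and not from others, and Glo1 transcript levels are known to follow it. The arrays measured RNA, so copy number itself was not analysed here.

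The promoters shown are that of Glo1, whose arrays separated by genotype, and that of Glp1r, the neighbour beyond Dnah8 whose arrays did not. The lines give the 250 bases before each annotated start, 5′ to 3′ on the gene's strand, from RefSeq (GRCm38.p6), with matches to the motifs searched in capitals. The Glo1 stretch is chr17:30612660-30612909 on the minus strand and the Glp1r stretch is chr17:30901617-30901866 on the plus strand. Of the 3 genes 2 had an entry.
Glo1: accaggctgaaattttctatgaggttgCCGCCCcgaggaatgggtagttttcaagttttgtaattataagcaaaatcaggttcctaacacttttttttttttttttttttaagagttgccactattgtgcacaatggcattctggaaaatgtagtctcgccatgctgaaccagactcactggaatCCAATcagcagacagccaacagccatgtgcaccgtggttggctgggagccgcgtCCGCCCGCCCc
Glp1r: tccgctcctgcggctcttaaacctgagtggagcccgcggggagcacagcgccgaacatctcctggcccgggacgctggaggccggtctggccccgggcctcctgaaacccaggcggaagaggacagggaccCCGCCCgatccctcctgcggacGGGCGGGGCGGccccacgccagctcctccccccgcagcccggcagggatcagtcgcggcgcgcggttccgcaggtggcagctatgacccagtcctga
The motifs, searched on both strands, were the CCAAT box (CCAAT), the GC box (GGGCGG), the TATA box (TATAAA), the core of the antioxidant response element (TGACNNNGC) and a Hox-Pbx site (TGATNNAT). Glo1 had 1 CCAAT box and 3 GC boxes, 2 of which overlap each other close to the start. Glp1r had 3 GC boxes, 2 of them overlapping. The other motifs had 0 matches in either window. Of 32851 promoter windows of this length, 33.8% held a CCAAT box, 32.7% a GC box, 12.4% a TATA box, 10.2% the antioxidant core and 7.68% the Hox-Pbx site. The Glo1 window held 8 CpG pairs at 46.4% G and C, and the Glp1r window held 26 CpG pairs at 73.2% G and C, against a median of 6 CpG pairs over all windows.

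Array medians lay between 118 and 139 linear intensity units in both groups, and pairs of arrays correlated at 0.885 to 0.907 across probe sets on the log2 scale. Of the 6 measured genes of the facial motor neuron list (7 in all) 3 had a higher and 3 a lower swap mean. The brightest, Ebf1, Isl1 and Tbx20, differed by 0.15, 0.13 and 0.19 on the log2 scale. Hoxb1 stood at 12.13 ± 0.38 in the swap arrays and 12.63 ± 0.07 in the control arrays (SD, n = 3 each), a difference of -0.51 (SE 0.27) with every swap array below every control array. limma (lmFit and eBayes, Benjamini-Hochberg adjustment over all probe sets) found no probe set past an adjusted p of 0.05 (0 of 45037, or 0.0% called), and 2060 (4.57%) had an unadjusted p under 0.05. Of the 8 probe sets of the 3 genes 0 were therefore called.

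Glo1 gave bright signals in these cells and was lower in every swap array than in every control array, on each of its 4 probe sets. The swap arrays held between 0.658 and 0.742 of the control level, depending on the probe set. Across the 4 probe sets the log2 difference ran from -0.60 to -0.43, with a median of -0.53.

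The brightest Glo1 probe set, 1451240_a_at, read 10893, 11115 and 10301 intensity units in swap arrays 1, 2 and 3, against 15460, 14934 and 15280 in control arrays 1, 2 and 3. The groups did not overlap, and the arrays of each group lay close together. On the log2 scale this was 13.39 ± 0.06 in the swap arrays and 13.89 ± 0.03 in the control arrays (SD, n = 3 each). The difference was -0.50 (SE 0.20, 95% interval -0.99 to -0.01), or 0.707 of the control level. The SE is limma's, which draws on the variance of all probe sets and is wider here than these 6 values alone would give. Its mean level was above that of 99.1% of probe sets.

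The second Glo1 probe set, 1424108_at, read 3710, 4006 and 3487 units in swap arrays 1, 2 and 3, against 5769, 5245 and 5553 units in control arrays 1, 2 and 3. Again the highest swap array lay below the lowest control array, by 0.39 on the log2 scale. Its log2 means were 11.86 ± 0.10 in the swap arrays and 12.43 ± 0.07 in the control arrays (SD, n = 3 each), a difference of -0.57 (SE 0.20, 95% interval -1.07 to -0.06).

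The third, 1424109_a_at, read 709, 695 and 737 units in swap arrays 1, 2 and 3, against 1115, 815 and 978 units in control arrays 1, 2 and 3. Control array 2 came closest to the swap arrays, with a gap of 0.14 on the log2 scale. Its log2 means were 9.48 ± 0.04 in the swap arrays and 9.91 ± 0.23 in the control arrays (SD, n = 3 each), a difference of -0.43 (SE 0.22, 95% interval -0.98 to 0.12).

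The dimmest, 1436070_at, read 282, 374 and 354 units in swap arrays 1, 2 and 3, against 428, 544 and 562 units in control arrays 1, 2 and 3. Swap array 1 was the lowest of the swap arrays and control array 1 the lowest of the control arrays. Its log2 means were 8.38 ± 0.22 in the swap arrays and 8.99 ± 0.22 in the control arrays (SD, n = 3 each), a difference of -0.60 (SE 0.24, 95% interval -1.21 to -0.00240).

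**Figure D1:**
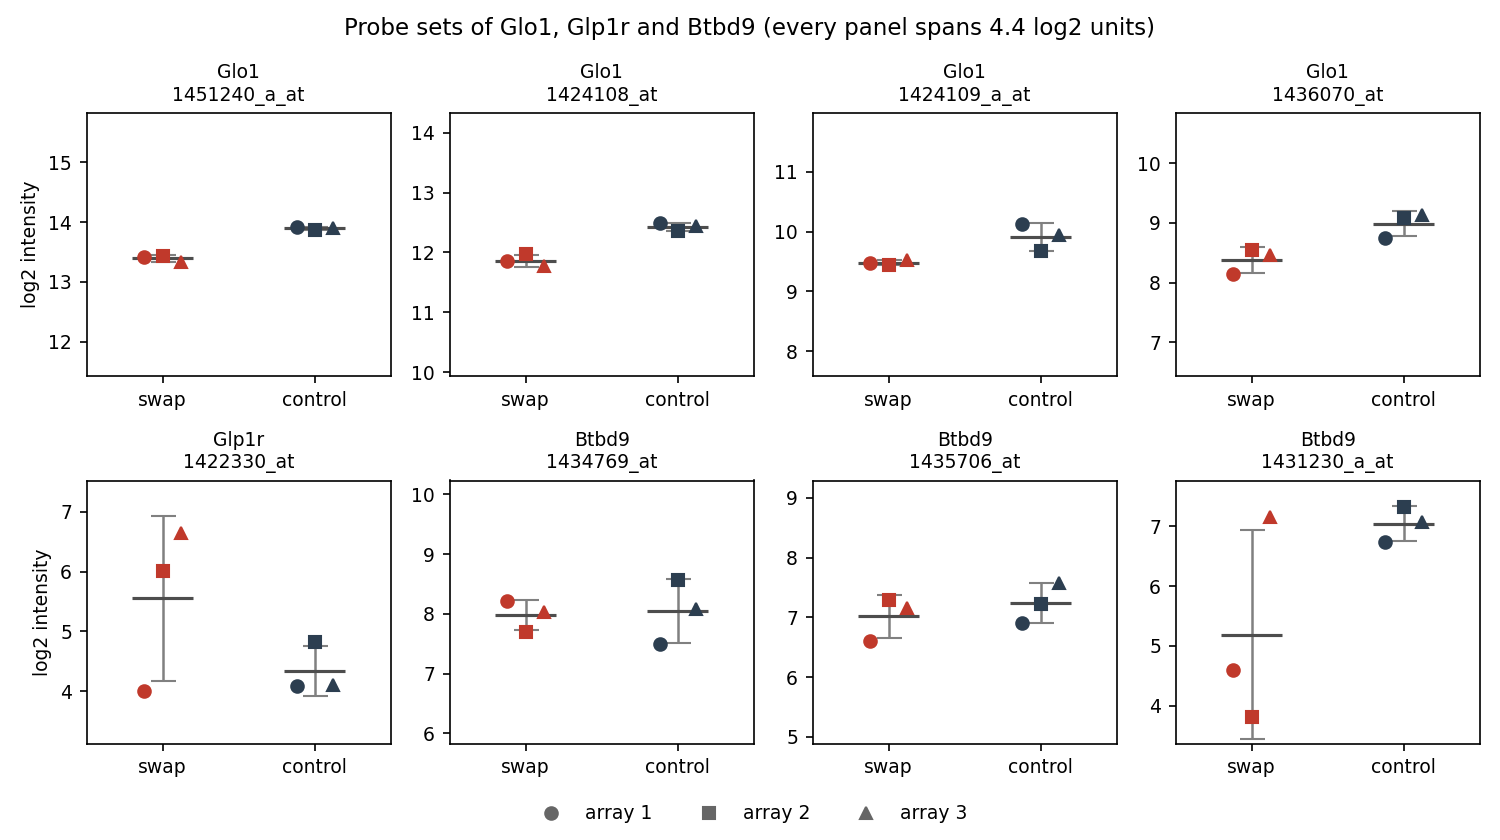
Log2 intensity (y axis) of each probe set of Glo1, Glp1r and Btbd9 in the 3 swap arrays (red) and the 3 control arrays (dark), with the array number as the symbol, the mean as a horizontal line and the SD as the bar. On all 4 Glo1 probe sets the swap arrays lie below the control arrays, and on the Glp1r and Btbd9 probe sets the groups overlap.

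The 4 Glo1 probe sets are not independent measurements, since they read the same 6 RNA samples and 3 of them were designed on the same source sequence. Their differences lay within 0.17 of one another on the log2 scale. The 95% interval lay below 0 for 3 of the 4, and none passed limma's adjusted test. It lay below 0 for 0 of the 4 with median centring, with the replicate number as a block, or without any one array other than control array 1, and for 1 of the 4 without that array. The count was 3 of the 4 with array weights, quantile normalization, an offset of 64 or only probe sets from the median level upward. With a variance prior fitted to the level (robust) it was 4 of the 4. The mean over the 4 probe sets differed by -0.53 (95% interval -0.98 to -0.07). The order of the arrays within a group was the same on 1451240_a_at and 1424108_at, with swap array 2 the highest and swap array 3 the lowest, and control array 1 the highest and control array 2 the lowest. On 1424109_a_at the control arrays kept this order and the swap arrays did not, and on 1436070_at control array 1 was the lowest.

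How often other probe sets behave in this way was counted over the whole array, as a description, since Glo1 was chosen on this contrast. Every swap value was under every control value on 4.73% of all probe sets, and on 4.13% of the 22519 whose mean reached the median level. Of the 1093 genes with 4 probe sets, 1 (0.0915%) had this pattern on every probe set, and that gene was Glo1. Among the 250 of these whose probe sets all reached the median level the share was 0.4%. These counts were made only in the direction seen for Glo1, 3 of whose 4 probe sets share a source sequence. At or above the level of 1451240_a_at there were 410 probe sets, and 6 (1.46%) had every swap value under every control value. Of the same 410, 1 (0.244%) had a difference as low as -0.50, and it was the Glo1 probe set itself. At or above the level of 1424108_at there were 1705 probe sets, of which 2 (0.117%) had a difference as low as its own, Glo1 and a probe set of Pan3, named after its value was seen. In the counts of a difference as low, both cuts are values of the Glo1 probe set itself, so it is always included. These counts are therefore no test of Glo1. At or above the level of 1424109_a_at 78 of 7177 probe sets (1.09%) had a difference as low as its own, and at or above that of 1436070_at 60 of 11176 (0.537%) did.

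**Figure D2:**
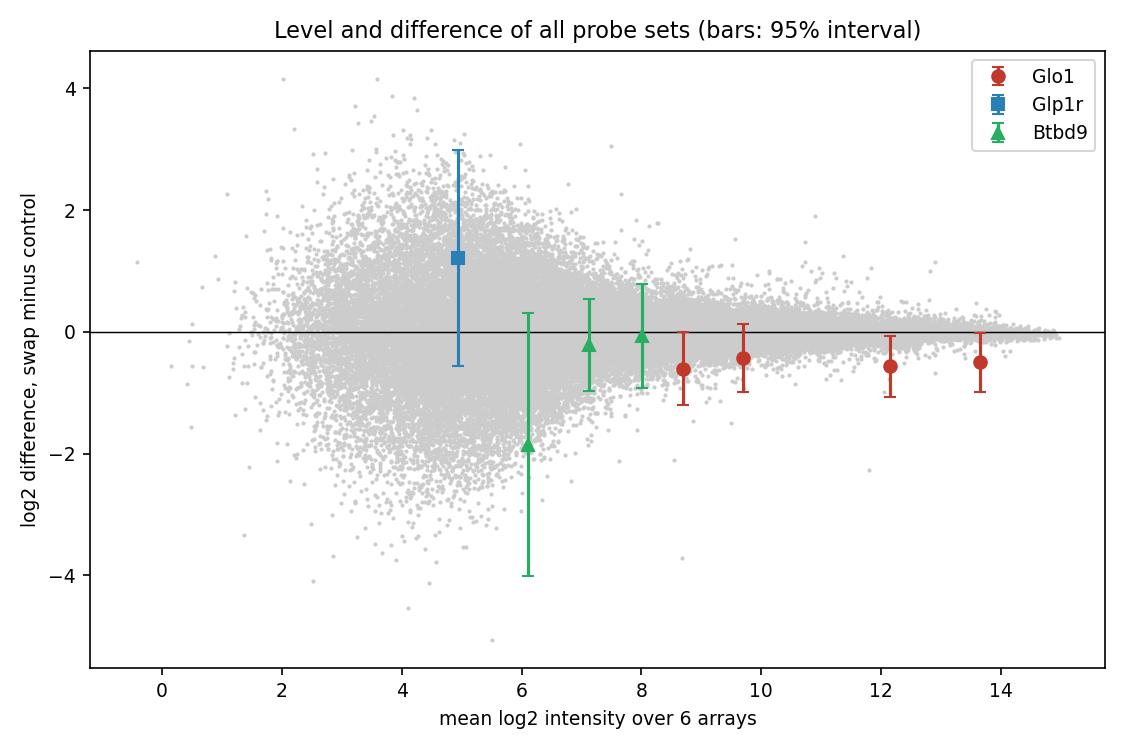
Log2 difference, swap minus control (y axis), against the mean log2 intensity over the 6 arrays (x axis) for all 45037 probe sets (grey), with those of Glo1, Glp1r and Btbd9 in colour and their 95% intervals as bars. The grey cloud narrows with the level, the 4 Glo1 probe sets lie between -0.60 and -0.43 at levels from 8.69 to 13.64, and the Glp1r probe set and the dimmest Btbd9 probe set lie where the cloud is wide.

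Because the groups did not overlap, leaving out 1 array could not turn the direction of Glo1. The difference of 1451240_a_at then lay between -0.52 and -0.47 and that of 1436070_at between -0.73 and -0.48. Mesenchyme markers averaged a log2 intensity of 8.36 in swap array 1 and 8.10 in control array 1, below the 8.96 to 9.64 of the other 4 arrays. Without both arrays numbered 1 the 4 Glo1 differences were -0.50, -0.53, -0.32 and -0.61, from the brightest probe set to the dimmest.

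The cell make-up of the sorts was followed with marker lists beside this result. In bulk samples fewer cells of a type and less RNA per cell cannot be told apart. Of 8 lists, 0 had mean log2 levels that set all swap arrays apart from all control arrays. The facial motor neuron list (6 of 7 measured) averaged 11.44 to 11.99 in the swap arrays and 11.80 to 11.90 in the control arrays. Within it Hoxb1 (-0.51) and Phox2a (-0.50, SE 0.31), a transcription factor of these neurons, had differences as low as that of 1451240_a_at, which were 2 of the 6, and the groups overlapped for Phox2a. Hoxb1 is the locus altered between the groups, so its value cannot be read as a sign of cell make-up, and the list average includes it. The summed intensity of the forebrain and midbrain list (7 of 8 measured) was 1358 to 1842 units in the swap arrays and 770 to 1330 units in the control arrays, and it was the 1 list of the 8 whose sums did not overlap. In it 6 of 7 markers had a higher swap mean, and 3 were higher in every swap array with an unadjusted p under 0.05, Otx2 (1.02, SE 0.24), Lhx2 (1.01, SE 0.37) and Rax (1.94, SE 0.65), while limma called 0 of them. Of all genes 4.3% had every swap value over every control value, and 3.63% had an unadjusted p under 0.05 in limma. The swap mean was also higher for 6 of 6 endothelium markers and 4 of 4 epithelium markers, and lower for 7 of 7 erythroid markers. Over all 18193 genes 9260 had a higher and 8933 a lower swap mean. Macrophage markers (9 of 9 measured) summed to 2217 to 4421 units in the swap arrays and 475 to 16478 units in the control arrays. Erythroid markers (7 of 9) summed to 15671 to 31839 units in the swap arrays and 20979 to 33893 units in the control arrays. Mesenchyme markers (8 of 8) summed to 3275 to 6177 units in the swap arrays and 2676 to 8928 units in the control arrays. For endothelium (6 of 6) the sums were 608 to 687 units in the swap arrays and 429 to 638 units in the control arrays, and for epithelium (4 of 4) they were 882 to 1477 units in the swap arrays and 621 to 1566 units in the control arrays. Neural crest and glia markers (3 of 5) summed to 1864 to 3046 units in the swap arrays and 1961 to 3117 units in the control arrays. No defining marker was at 0 on any array, but this holds for every probe set and does not show that a marker was detected. The part of any cell type in the Glo1 result was not tested. The log2 ratio of the 3′ to the 5′ control probe set, a measure of RNA and labelling quality, was 2.45 to 2.92 in the swap arrays and 2.41 to 2.67 in the control arrays for Actb, and 1.23 to 1.93 in the swap arrays and 1.28 to 1.41 in the control arrays for Gapdh.

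Glp1r gave a dim signal, with a mean above that of 21.5% of probe sets, and varied most within the swap group. It read 16.02, 64.79 and 100.01 units in swap arrays 1, 2 and 3, against 16.998, 28.30 and 17.29 units in control arrays 1, 2 and 3. Swap arrays 2 and 3 lay above every control array and swap array 1 lay below every one, so the groups overlapped. The log2 means were 5.55 ± 1.38 in the swap arrays and 4.34 ± 0.42 in the control arrays (SD, n = 3 each), a difference of 1.21 (SE 0.72, 95% interval -0.57 to 2.99). Without swap array 1 the difference was 1.99 and without swap array 3 it was 0.67. The deposited table has no detection calls, so whether the receptor transcript was present is not known.

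Btbd9 was measured by 3 probe sets of low to middling brightness, and on each the groups overlapped. The swap mean was lower on all 3, and the mean over the 3 probe sets differed by -0.71 (95% interval -1.66 to 0.23). The brightest, 1434769_at, read 295, 208 and 261 units in swap arrays 1, 2 and 3, against 181, 378 and 271 units in control arrays 1, 2 and 3. The control arrays spanned the swap arrays on this probe set. Its log2 means were 7.98 ± 0.26 in the swap arrays and 8.05 ± 0.53 in the control arrays (SD, n = 3 each), a difference of -0.07 (SE 0.34, 95% interval -0.92 to 0.78). The difference was 0.19 without control array 2 and 0.07 without swap array 2, so its direction depended on single arrays.

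The second Btbd9 probe set, 1435706_at, read 97.2, 157 and 142 units in swap arrays 1, 2 and 3, against 120, 150 and 190 units in control arrays 1, 2 and 3. Swap array 1 was the lowest and control array 3 the highest. Its difference was -0.22 (SE 0.31, 95% interval -0.98 to 0.54), and -0.01 without swap array 1.

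The third Btbd9 probe set, 1431230_a_at, read 24.1, 14.1 and 143 units in swap arrays 1, 2 and 3, against 107, 159 and 134 units in control arrays 1, 2 and 3. Swap arrays 1 and 2 were low and swap array 3 lay among the control arrays. The log2 means were 5.19 ± 1.75 in the swap arrays and 7.04 ± 0.29 in the control arrays (SD, n = 3 each), a difference of -1.85 (SE 0.87, 95% interval -4.02 to 0.31). Without swap array 3 it was -2.84, and without swap array 2 it was -1.17. This probe set lay below the median level of 114 units, where differences had a median SE of 0.73, against 0.28 at or above it.

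In their order on the chromosome the genes run Btbd9, Glo1, 1700097N02Rik, Dnah8 and Glp1r, counting those that the array measured. The axonemal dynein heavy chain gene Dnah8, between Glo1 and Glp1r, read at a low level on both of its probe sets. Its brighter probe set had log2 intensities of 4.10, 5.46 and 3.87 in swap arrays 1, 2 and 3, against 3.66, 6.47 and 5.69 in control arrays 1, 2 and 3. The groups overlapped, with a difference of -0.80 (SE 0.83). The other Dnah8 probe set gave -0.71 (SE 1.25). The clone gene 1700097N02Rik, next to Glo1, had log2 intensities of 6.96, 7.11 and 7.47 in swap arrays 1, 2 and 3 and 6.16, 6.04 and 7.03 in control arrays 1, 2 and 3 on its brightest probe set. Swap array 1 lay below control array 3, so the groups overlapped, and the difference was 0.77 (SE 0.35, 95% interval -0.09 to 1.63).

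Around the 3 genes, 12 measured genes on each side and the 2 between were taken as neighbours by order in RefSeq, 26 in all. In the swap arrays 9 had a higher mean and 17 a lower one, with a median difference of -0.08, against 0.01 over 18193 genes. limma called 0 of them, and 2 had an unadjusted p under 0.05, against 3.63% of all genes. The swap values were all under the control values for 1 neighbour and all over them for 1, against 4.55% and 4.3% of all genes. A difference as low as that of 1451240_a_at was found for 4 of the 26 neighbours, against 13.0% of all genes, and for 1 of the 16 at or above the median level, against 3.32% of the 11168 genes at or above it.

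The nearest genes before Btbd9 were the zinc-finger gene Zfand3 (difference 0.20, SE 0.25), the adhesion molecule gene Mdga1 (-0.31, SE 0.54), Ccdc167 (0.50, SE 0.32) and the mRNA cap methyltransferase Cmtr1 (-0.10, SE 0.34). The nearest after Glp1r were Umodl1 (1.63, SE 1.36), the cholesterol exporter Abcg1 (-0.52, SE 0.33) and the trefoil factors Tff3 (0.64, SE 0.43) and Tff2 (-0.05, SE 0.34). Zfand3, which is next to Btbd9 and bright, stood at 10.71 ± 0.30 in the swap arrays and 10.51 ± 0.14 in the control arrays (SD, n = 3 each). Abcg1 was the neighbour at or above the median level whose difference was as low as that of Glo1, with log2 intensities of 7.68, 7.79 and 8.16 in swap arrays 1, 2 and 3 and 7.92, 8.93 and 8.34 in control arrays 1, 2 and 3, where the groups overlapped. The neighbours whose groups did not overlap were named after their values were seen. The predicted gene Gm20161 had a difference of -3.22 (SE 0.42) at log2 levels of 1.78 ± 0.62 in the swap arrays and 5.01 ± 0.47 in the control arrays (SD, n = 3 each), far below the median level. The sugar-phosphate transporter gene Slc37a1 had a difference of 0.92 (SE 0.37).

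**Figure D3:**
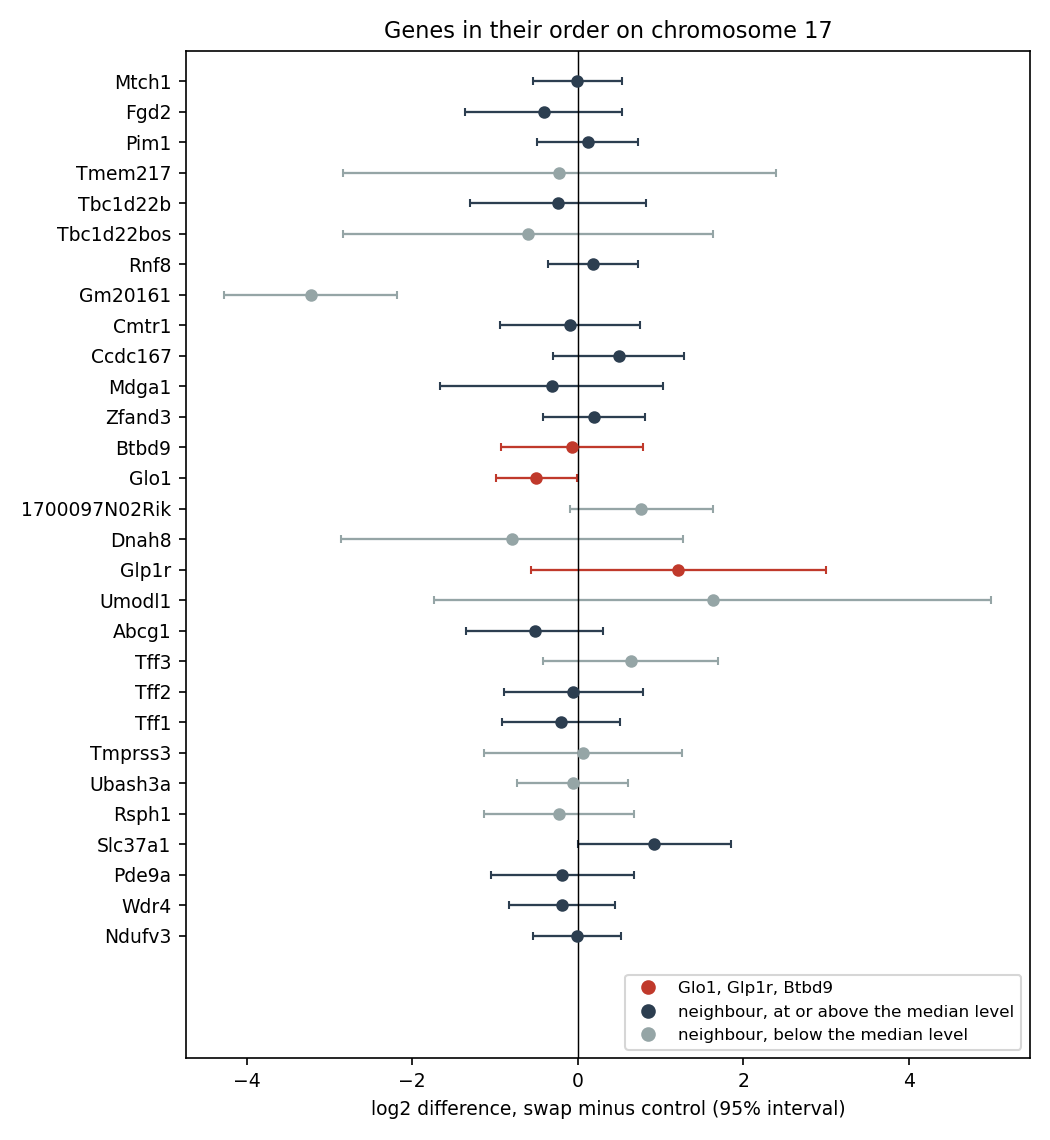
Log2 difference, swap minus control (x axis), with its 95% interval for the brightest probe set of each measured gene, in the order of the genes on chromosome 17 from top to bottom. Glo1 has a short interval below 0 at -0.50. The genes next to it, Btbd9 at -0.07 and 1700097N02Rik at 0.77, have intervals that include 0. The Btbd9 interval (-0.92 to 0.78) also includes -0.50, and its dimmer probe sets, not drawn, differed by -0.22 and -1.85. Whether the genes differ from one another was not tested.

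Lists of genes that work with the 3 proteins gave 0 called members in limma. Methylglyoxal is also handled by other enzymes, and of 12 measured genes of this list (13 in all, without Glo1) 7 had a higher and 5 a lower swap mean, with a median of 0.06. Glyoxalase 2 (Hagh), the partner enzyme of Glo1 and named after its value was seen, stood at 9.23 ± 0.18 in the swap arrays and 9.32 ± 0.27 in the control arrays (SD, n = 3 each), a difference of -0.09 (95% interval -0.71 to 0.52). The brightest members were the aldo-keto reductase Akr1a1 (0.01, 95% interval -0.52 to 0.54), Park7, a redox-sensitive protein (-0.05, -0.56 to 0.47), and the aldehyde dehydrogenase Aldh9a1 (0.46, -0.38 to 1.30). Akr1b10, another aldo-keto reductase, differed by 0.78 (SE 0.29), the smallest unadjusted p in the list. Of these 12 genes 0 had a difference as low as that of 1451240_a_at, against 13.0% of all genes, and the count was 3 of 17 in the glutathione list, 1 of 16 in the glycolysis list and 2 of 17 in the GLP-1 list. Among genes at or above the median level the share was 3.32%. In the same order of lists, 9 of 12, 13 of 17, 15 of 16 and 8 of 17 genes reached that level. Every list gene counted here as this low had a mean below that level.

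The glutathione list, for the cofactor that glyoxalase 1 needs, had 17 of 18 genes measured, 7 higher and 10 lower, with a median of -0.05. Its brightest members were the peroxidase Gpx1 (0.00177, SE 0.22), the transferase Gstp1 (-0.15, SE 0.20) and glutathione reductase Gsr (0.06, SE 0.25). Its smallest unadjusted p belonged to the glutathione-degrading enzyme Chac1 (-0.81, SE 0.27) and the cystine transporter Slc7a11 (-2.48, SE 0.85). Both had a mean below the median level, with Slc7a11 at 2.96 in the swap arrays and 5.44 in the control arrays.

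Glycolysis, from whose triose phosphates methylglyoxal arises, had 16 of 19 genes measured, 7 higher and 9 lower, with a median of -0.06. Its brightest members were Pgk1 (0.09, SE 0.29), the glucose transporter Slc2a1 (-0.14, SE 0.27) and Pgam1 (-0.05, SE 0.27). The brain aldolase Aldoc, at a mean under the median level, differed by -3.53 (SE 0.88), and neuronal enolase Eno2 by -0.43 (SE 0.29).

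The list of GLP-1 and related peptide signalling had 17 of 19 genes measured, 9 higher and 8 lower, with a median of 0.12. Its brightest members act downstream of many receptors, the protein kinase A subunits Prkar1a (-0.04, SE 0.20) and Prkaca (-0.07, SE 0.20) and the G protein gene Gnas (-0.07, SE 0.21). Its smallest unadjusted p belonged to the VIP receptor Vipr1 (1.13, SE 0.43) and the GIP receptor Gipr (1.60, SE 0.72), both below the median level, as was Glp1r.

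The cullin-3 and BTB list, for the partners and relatives of Btbd9, had 21 of 22 genes measured, 11 higher and 10 lower, with a median of 0.03. Its members lay between -0.33 and 0.33. The brightest were Enc1 (-0.02, SE 0.22), the substrate adaptor Klhl9 (-0.09, SE 0.23) and the ubiquitin-like protein Nedd8, which activates cullins (0.14, SE 0.25). Kctd10 (-0.33, SE 0.27) and Klhl20 (-0.27, SE 0.21) had the smallest unadjusted p. The other restless legs syndrome candidates known from human studies had 5 of 5 measured and a median of 0.11. Among them Meis1 differed by 0.40 (SE 0.23), Ptprd by -0.04 (SE 0.22) and Tox3 by 0.11 (SE 0.22). The transcriptional corepressor Skor1 differed by 0.82 (SE 0.80), and by 0.00347 without control array 1.

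Other genes whose copy number or integrity is known to vary between mouse strains were taken as a further list of 3. Nnt, a mitochondrial transhydrogenase, stood at 13.02 ± 0.25 in the swap arrays and 12.75 ± 0.16 in the control arrays (SD, n = 3 each), a difference of 0.27 (SE 0.24). Ide, the insulin-degrading enzyme, differed by -0.09 (SE 0.25) and Fgfbp3 by -0.15 (SE 0.28). The groups overlapped for all 3 genes.

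**Figure D4:**
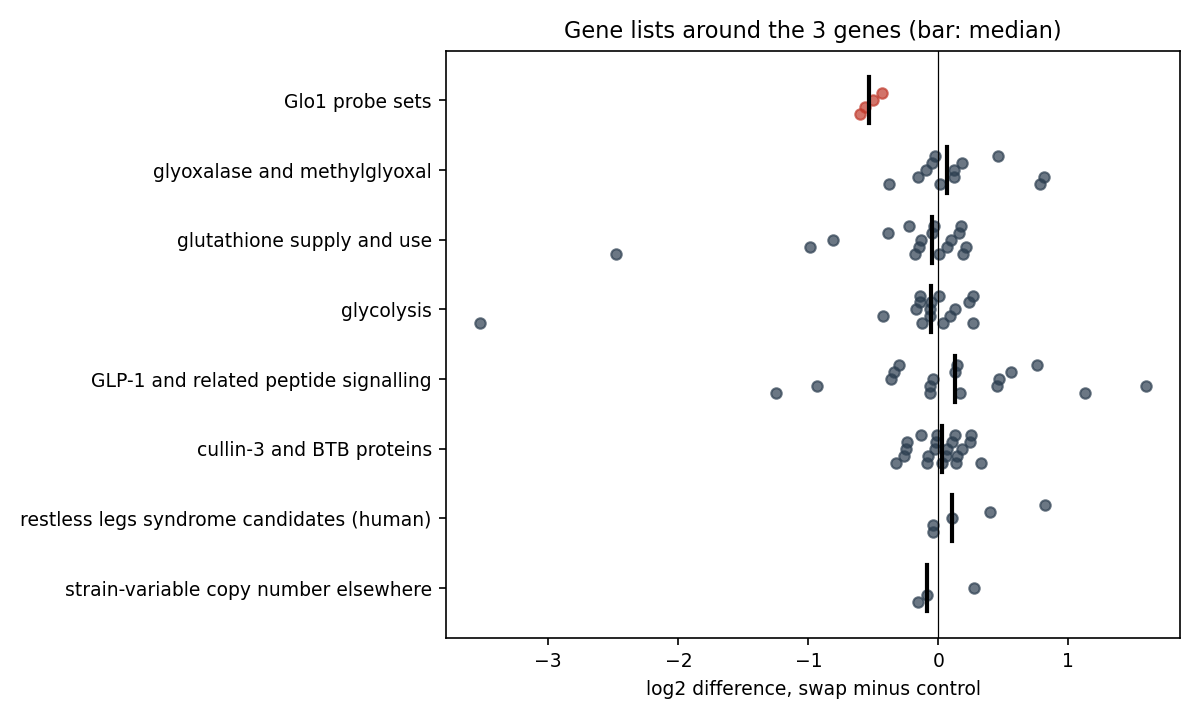
Log2 difference, swap minus control (x axis), of the 4 Glo1 probe sets (top) and of each measured gene of the 7 lists, with the median as a bar. The Glo1 probe sets lie together between -0.60 and -0.43, while each list of genes lies on both sides of 0 with a median between -0.09 and 0.12.

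Genes whose values over the 6 arrays followed those of each member most closely were ranked by Pearson correlation, among all named probe sets whose mean reached the median level. With 6 arrays from the same 2 groups, high values arise easily, and they are given as a description. For Glo1 (1451240_a_at) the closest were Entpd7 (r = 0.983), Dtymk (0.979), Cnpy2 (0.978), Mplkip (0.977) and Ddx54 (0.9753), and 25 probe sets reached 0.95. The differences of these 5 genes were -0.87 for Entpd7, -0.20 for Dtymk, -0.65 for Cnpy2, -0.89 for Mplkip and -0.66 for Ddx54. For Glp1r the closest was Krt8 (r = 0.995), followed by Tchp (0.977), Csnk1g3 (0.976), Gpr153 (0.976) and Dnah5 (0.976). For Btbd9 (1434769_at) they were Mdfic (r = 0.997), Plekha4 (0.993), Ggnbp2 (0.987), Kif5c (0.987) and Kif26a (0.987). These correlations have no p-value here because n is 6 arrays and the points share 2 genotypes.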

How the data were processed

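Amplified RNA of the sorted cells was read on Affymetrix mouse expression arrays, per the labels. The values deposited by the authors are linear intensities, 1 for each probe set on each array. They were made with affy, per the submitters' processing notes, with steps not given in the sources used here. After 2% trimming at each end their mean is 500 on all arrays, so arrays had been scaled alike. log2 was taken with no offset, since every intensity was above 0. The 64 array control probe sets were left out. Of the rest 34945 had 1 gene symbol in the platform table, 932 had several and 9160 had none, and the last 2 kinds were not named. A gene outside the 3 was represented by its brightest probe set (mean over the 6 arrays). The ranking by Pearson correlation instead searched every named probe set at or above the median level.

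Differences are swap minus control from limma 3.58.1 in R 4.3.3, fitted on 45037 probe sets and adjusted by Benjamini-Hochberg over all of them. The fit was tested on simulated data. The number of arrays limits the precision. The members and lists were chosen with earlier results of these data known. Named genes were all probe sets of the members, the nearest 4 neighbours per side and those between, for each list the 3 brightest and the 2 with the smallest unadjusted p, and the 5 closest in pattern, apart from those said to be named after their values were seen. RefSeq gene order came from GRCm38.p6, and its Entrez identifiers matched 34741 of the 34945 probe sets. Alternatives were the replicate number as a block, quantile normalization, median centring, keeping only the brighter part of the probe sets (means from the median level upward), another prior, array weights, an offset of 64, the mean of all probe sets per gene and leaving out arrays.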

Additional observations from a re-analysis of the deposited data

How the results depend on the processing

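limma called 0 probe sets under all 14 alternatives run over the whole array (smallest adjusted p 0.241, with 838 to 2375 probe sets at an unadjusted p under 0.05), and 0 neighbours and 0 list genes. Leaving out both arrays numbered 1 was chosen after seeing the data. Glo1 was lower in the swap arrays on all 4 probe sets under all 14, with 1451240_a_at between -0.52 and -0.47; leaving out 1 array could not turn this, since the groups do not overlap. Its 95% interval, -0.99 to -0.01, became -0.72 to -0.28 with a variance prior fitted to the level (robust), and -1.06 to 0.12 with median centring. Intervals of the 4 Glo1 probe sets lay below 0 for 3 in the fit reported. The count was also 3 with array weights, quantile normalization, the offset of 64 or the filter at the median level, and 4 with that prior. It was 0 with median centring or the replicate block, 0 or 1 with 1 array left out, and 0 without both arrays numbered 1. The filter removed Glp1r and 1431230_a_at. The median of the neighbours ran from -0.18, with the mean of all probe sets per gene, to -0.00366. The mean of all probe sets also turned the medians of the GLP-1 list and the cullin-3 list to -0.09 each. The list medians changed sign in 17 of 120 values, and the cause was not tested. With the replicate number as a block limma again called 0 probe sets, and the interval of 1451240_a_at was -1.12 to 0.12. The numbers were not shown to pair the arrays, and whether they mark a batch was not tested. Deviations of same-numbered arrays correlated at 0.23, 0.03 and 0.22. Swap arrays 1 and 3 correlated best with the control array of their number, and swap array 2 with control array 1, at 0.04. By number, array medians were 118, 122 and 139 units (swap) and 118, 130 and 139 units (control).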
